A study of Drosophila melanogaster with 2 samples.

Results

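Atf3, Xbp1, crc, Irbp18, slbo, Atf6, CrebA, CrebB, Jra and kay encode basic leucine zipper (bZIP) transcription factors that act in stress and growth responses of Drosophila melanogaster. They were taken as listed symbols, and all 10 were found among the 13945 protein-coding genes that Ensembl annotates on the 6 nuclear chromosomes and arms of dm6. Their occupancy by another bZIP factor, Cnc, was read from chromatin immunoprecipitation followed by sequencing (ChIP-seq), which maps where a protein sits on the genome. A peak belonged to a gene when its summit, the point of highest signal, lay in the gene body or within 5 kb of it. By this rule 34 of the 6153 reproducible peaks belonged to the 10 genes. The longer lists, of 30000 peaks each, gave 131 peaks in the pooled call, 122 in replicate 1 and 137 in replicate 2.

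The study held 1 group of 2 biological replicates, and both came from the strain cnc-GFP. These animals stably express Cnc with GFP at its C terminus, and the description names eGFP as the tag and anti-GFP as the antibody, where the antibody label reads cnc. Whole animals of mixed sex were taken at the wandering stage of the third instar, with age given as unknown. All tissues were therefore measured together, and the labels do not say how strongly the fusion is expressed beside untagged Cnc. No untagged or untreated group was analysed here, so no comparison between conditions was made. Peak heights are signal values as the authors deposited them, scores whose scale is not stated. They rank peaks within 1 list, and those printed without a replicate come from the pooled list. The sequencing depth is unknown, since no read numbers were used.

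bZIP proteins bind DNA as dimers, holding each other by a leucine zipper and touching the DNA with the basic region beside it. Which partners pair decides which sites they recognise, and Cnc pairs with the small Maf protein maf-S to act in oxidative and xenobiotic stress. Xbp1, Atf6 and crc are effectors of the unfolded protein and integrated stress responses, which act when the endoplasmic reticulum (ER) is overloaded or amino acids run short. Jra and kay are the fly Jun and Fos, which form AP-1 downstream of the kinase JNK, and Atf3 can pair with Jra. CrebA and CrebB belong to the CREB family, while slbo and Irbp18 are relatives of the mammalian C/EBP proteins.

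The sequences under 6 summits show what lay outside the exons at high peaks of Atf3, CrebB and kay, and at some of the summits that held a bZIP-type motif. They are a selection, and not the 6 highest. Each is the 101 bp around a summit on the plus strand of dm6, 5′ to 3′, from the RefSeq assembly of that build. Capitals mark a match to a searched motif, and a window in lower case throughout held none of those searched. The first is the Atf3 promoter summit (chrX:1275459-1275559), and the second lies further upstream of Atf3 (chrX:1277189-1277289). The CrebB window (chrX:18367284-18367384) lies in an intron near the 5′ end of that gene. The crc window (chr2L:21313530-21313630) holds TGACGTG, the element known for ATF6 and XBP1 in mammals. The upstream kay window (chr3R:29763210-29763310) holds the same element on the other strand and TTGCNNAA, a C/EBP form, also on the other strand. The intronic kay window (chr3R:29773913-29774013) holds the only match to the Cnc-Maf motif TGACNNNGC among the 34 windows, again on the other strand.
Atf3 promoter: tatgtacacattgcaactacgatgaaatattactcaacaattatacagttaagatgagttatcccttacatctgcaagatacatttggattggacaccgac
Atf3 upstream: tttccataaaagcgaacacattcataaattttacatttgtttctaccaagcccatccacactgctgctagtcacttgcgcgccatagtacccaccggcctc
CrebB intron: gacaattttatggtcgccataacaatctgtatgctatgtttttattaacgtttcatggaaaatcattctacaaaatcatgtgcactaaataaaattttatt
crc intron: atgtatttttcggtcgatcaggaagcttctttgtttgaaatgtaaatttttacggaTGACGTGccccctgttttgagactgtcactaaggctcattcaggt
kay upstream: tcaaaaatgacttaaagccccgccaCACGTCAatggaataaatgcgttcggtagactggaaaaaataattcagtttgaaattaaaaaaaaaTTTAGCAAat
kay intron: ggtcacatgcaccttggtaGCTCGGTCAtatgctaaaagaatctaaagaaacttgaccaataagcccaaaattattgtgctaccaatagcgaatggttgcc
Counted along the plus strand, the crc element began 6 bp after the summit. The element upstream of kay began 25 bp before its summit, and the Cnc-Maf match in the kay intron 31 bp before its own.

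Cnc-eGFP was found at the promoters of 8 of the 10 bZIP genes. A promoter summit here is a reproducible summit within 1000 bp of any annotated transcript start of the gene, in either direction. For crc and Irbp18, every such summit also lay within 1000 bp of a start of another protein-coding gene and cannot be assigned to either. The share was 80% (exact 95% binomial interval 44.4 to 97.5, for counting error over genes only), against 4449 of all 13945 protein-coding genes (31.9%). Genes with several starts offer more sequence to this count, so it was also read by number of distinct starts. Of the genes with 1 start, all 3 (Atf3, Irbp18 and CrebA) had a promoter summit, against 25.9% of all genes with 1 start. Of those with 2 starts, 3 of 5 (Xbp1, crc and Jra) had one, against 42.8%, and slbo and Atf6 had none. Both genes with 3 or more starts, CrebB and kay, had one, against 61.3%. The genes were chosen with results known, and no test was made of these shares. Within 250 bp of a start the count was 4 of 10 (Atf3, Xbp1, CrebB and Jra), against 24% of all genes. In the upper 3076 reproducible peaks by signal value it was also 4 of 10 (Atf3, Xbp1, Irbp18 and CrebB), against 20.3%.

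In the wider window of gene body and 5 kb flanks, the same 8 of 10 genes (80%) had at least 1 reproducible summit, against 56.5% of all genes, and they held all 34. The windows of the 10 genes covered 216488 bp and held 1.57 reproducible summits per 10 kb, against 0.737 for all protein-coding genes. The peaks were closer together than the average but not higher. Their signal values ran from 211 to 2021 with a median of 318, against 206 to 7349 and a median of 353 for all 6153 peaks. Of the 34, 16 were above the median of all peaks and 4 were among the 500 highest. At the promoters alone, the highest summit of each of the 8 genes had a median of 704, against 446 for all genes with a promoter summit. That median falls in a gap, so it stands for none of the 8. CrebA, Jra, kay and crc had 242 to 313, below 446, and Atf3, Xbp1, Irbp18 and CrebB 1095 to 2021.

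The 8 genes fell into a high and a low set by their highest signal within 1000 bp of a start. Atf3 (2021), Xbp1 (1902), Irbp18 (1237) and CrebB (1095) stood above 86.4% or more of the 4449 genes with a promoter summit. The CrebB value belongs to an intronic summit 773 bp downstream of a start, and the CrebB summit 87 bp upstream of its first start had 213. The Irbp18 summit lay nearer to the start of APP-BP1, at 35 bp, than to its own, at 261 bp. CrebA (313), Jra (293), kay (287) and crc (242) stood above 29% of those genes or fewer. No gene had a value between 313 and 1095 at this distance. The gap would not hold at 2000 bp. There kay had a summit of 598 at 1071 bp from a start, and CrebA had a summit of 513 at 1768 bp. In replicate 1 the high set ran from 525 (CrebB) to 1100 (Xbp1) and the low set from 132 (crc) to 247 (CrebA). In replicate 2 the high set ran from 553 (CrebB) to 964 (Atf3) and the low set from 80.5 (CrebA) to 228 (Jra). The pooled call was made from both replicates, so these values are not independent of the split. The lowest reproducible peaks of the 10 genes, 211 upstream of Xbp1 and 213 at CrebB, lay just above the floor of the list at 206. Just under it lay a peak of 200 at crc and peaks of 195 at Xbp1 and kay.

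**Figure D1:**
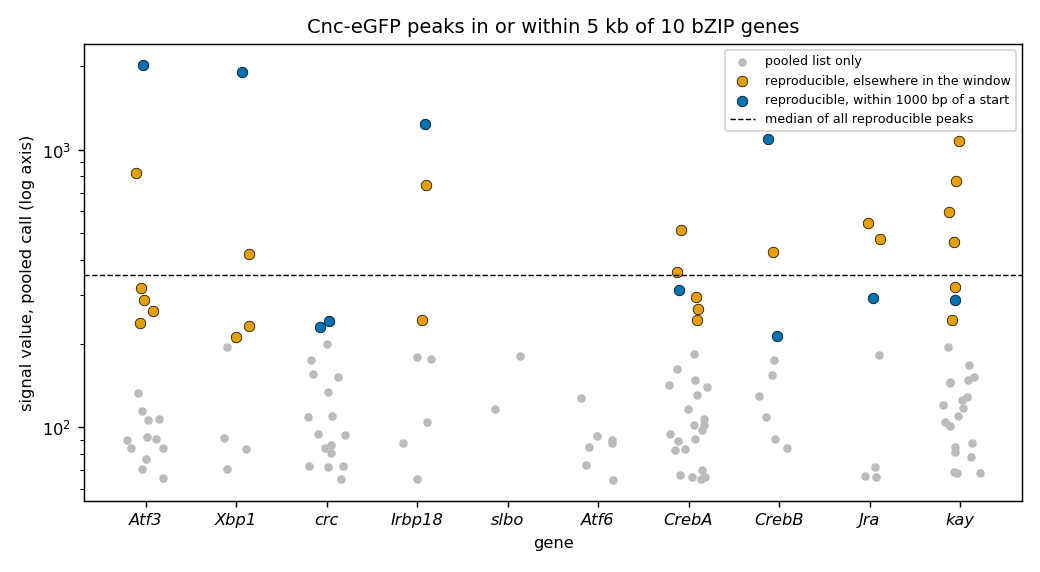
Signal values (log axis) of the reproducible peaks at each of the 10 bZIP genes, with promoter summits marked apart from other summits; grey points are peaks of the pooled list only, and slbo and Atf6 have no others. The horizontal spread within a gene is for legibility, and the dashed line is the median of all reproducible peaks, 353. The highest promoter summits of Atf3, Xbp1, Irbp18 and CrebB lie above 1000, and those of CrebA, Jra, kay and crc between 242 and 313.

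Among the effectors of ER stress, Xbp1 had a high promoter summit and Atf6 had no reproducible peak. Xbp1, whose mRNA is spliced by the ER sensor Ire1, spans 2206 bp on 2R (21143545 to 21145750, plus strand, FBgn0021872). Its promoter summit lay in intergenic sequence 130 bp upstream of the first start, in a peak at 21143229 to 21143600. The signal value was 1100 in replicate 1 and 827 in replicate 2, ranks 149 and 152 of 30000. The pooled value was 1902, rank 140. The replicates placed the peak almost equally high. The 101 bp at this summit had 17.8% G and C, the lowest of the 34 windows. A further peak upstream of Xbp1 (211, rank 5939) was in an intron of Magi, and 2 overlapping peaks past its 3′ end (422 and 232) lay nearest the start of Hmg-2, which encodes a high mobility group protein.

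Atf6, an ER membrane protein that is cut on stress to release its bZIP part, spans 10024 bp on 2R (5144733 to 5154756, plus strand, FBgn0033010). Its 7 pooled-list peaks were all below the reproducible list. The highest lay 125 bp upstream of the first start, with 76.9 in replicate 1 (rank 8609), 33.4 in replicate 2 (rank 28018) and 127 in the pooled call (rank 11761). Replicate 2 thus held it close to the end of its list. The deposited −log10 q value of that peak was 0.958, against 2.61 or more for every reproducible peak at the other 8 genes. The nearest reproducible summit was 36195 bp from the first Atf6 start.

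crc, the fly ATF4, is translated when eIF2alpha is phosphorylated. It spans 8662 bp on 2L (21310866 to 21319527, plus strand, FBgn0000370) and has 2 distinct starts. The reproducible summit at its first start lay 284 bp upstream, with 132 in replicate 1, 124 in replicate 2 and 242 in the pooled call. The start of Mondo, a gene for a sugar-sensing factor on the other strand, was also within 1000 bp of that summit. The other summit lay in a crc intron, 780 bp upstream of the start of the transcript crc-RB, with 124, 115 and 230 in the same order. CG46314 shares that start. Both peaks were low in both replicates. Their ranks were 4678 and 5024 in replicate 1, and 4622 and 5165 in replicate 2. crc had 18 pooled-list peaks in its window, so that the 2 reproducible ones stood among 16 lower peaks.

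Irbp18, a C/EBP-like protein that pairs with crc in flies, spans only 741 bp on 3L (11097446 to 11098186, minus strand, FBgn0036126). Its promoter summit lay 261 bp upstream of its start and inside the 5′ UTR of the neighbouring gene APP-BP1, 35 bp from the start of that gene. Replicate 1 gave 549 (rank 631), replicate 2 gave 621 (rank 289), and the pooled call gave 1237 (rank 370). The peak cannot be assigned to either of the divergent genes, and it lay nearer to APP-BP1. The other 2 reproducible peaks of the Irbp18 window lay at starts of other genes, 10 bp from that of JIL-1 (746) and 1 bp from that of CG33947 (244).

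Atf3, a partner of Jra that is known in flies for restraining immune and metabolic gene activity, had the highest promoter summit of the 10 genes. It spans 32545 bp on X (1242740 to 1275284, minus strand, FBgn0028550), and its 3 transcripts share 1 start. The promoter summit lay in intergenic sequence 225 bp upstream, in a peak at 1275349 to 1275704. It had 1079 in replicate 1 (rank 155), 964 in replicate 2 (rank 101) and 2021 in the pooled call (rank 121). A narrower peak of 185 bp lay 1955 bp upstream, with 435, 379 and 822 in the same order. Both are among the sequences printed above, and neither held a searched motif. Within the gene, 3 intronic summits were low. Their pooled values were 286 at 4387 bp downstream of the start, 238 at 5403 bp and 263 at 26378 bp. The last of these was uneven, with 53.7 in replicate 1 (rank 13017) and 189 in replicate 2 (rank 2596). The sixth peak (316) lay past the 3′ end, 199 bp from the start of CG11403.

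slbo, the C/EBP factor required for border cell migration in the fly ovary, had no reproducible peak. It spans 2786 bp on 2R (24331522 to 24334307, minus strand, FBgn0005638), and its nearest reproducible summit was 29259 bp from the upstream start. The pooled list held 2 peaks in its window. The higher, 3442 bp upstream, had 97.9 in replicate 1, 99.8 in replicate 2 and 181 in the pooled call (rank 7308). The lower, 2209 bp upstream, had no overlapping peak in replicate 1, 39 in replicate 2 and 116 in the pooled call. No peak of the pooled list lay within 1000 bp of either slbo start.

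CrebA and CrebB differed in where the reproducible signal lay. CrebA, which raises secretory capacity in the embryo, spans 17820 bp on 3L (15535395 to 15553214, plus strand, FBgn0004396) and has 1 start. Its promoter summit lay 399 bp upstream, with 247 in replicate 1 (rank 2171), 80.5 in replicate 2 (rank 8433) and 313 in the pooled call. Among the highest promoter summits of the 8 genes, this was the only one outside the highest 6153 peaks of a replicate list. The highest CrebA peak was instead 1768 bp upstream, with 251, 275 and 513 in the same order. It ranked 2120 in replicate 1 and 1446 in replicate 2. CrebA also had a peak 4824 bp upstream (294), intronic peaks 2772 bp (267) and 13684 bp (361) downstream of its start, and a peak past its 3′ end (243) in the 5′ UTR of AGO2. The intronic peak at 2772 bp was uneven, with 45.2 in replicate 1 (rank 15850) and 165 in replicate 2 (rank 3117).

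CrebB, the fly counterpart of CREB known for its part in long-term memory, spans 11508 bp on X (18366357 to 18377864, plus strand, FBgn0265784). Its 10 transcripts have 4 distinct starts. The highest CrebB summit lay in an intron, 773 bp downstream of the start at 18366561, with 525 in replicate 1 (rank 669), 553 in replicate 2 (rank 383) and 1095 in the pooled call (rank 482). A much lower summit lay 87 bp upstream of the first start, with 157, 82.3 and 213 in the same order. The main CrebB peak therefore counted as a promoter summit by distance while lying inside the gene. The remaining CrebB peak, 1786 bp downstream, had 299, 186 and 428. The downstream starts at 18370984 and 18371261, used by 6 of the transcripts, had no reproducible summit within 1000 bp. Pooled-list peaks lay 9 bp from the first of these (90.8) and 237 bp from the second (129).

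**Figure D2:**
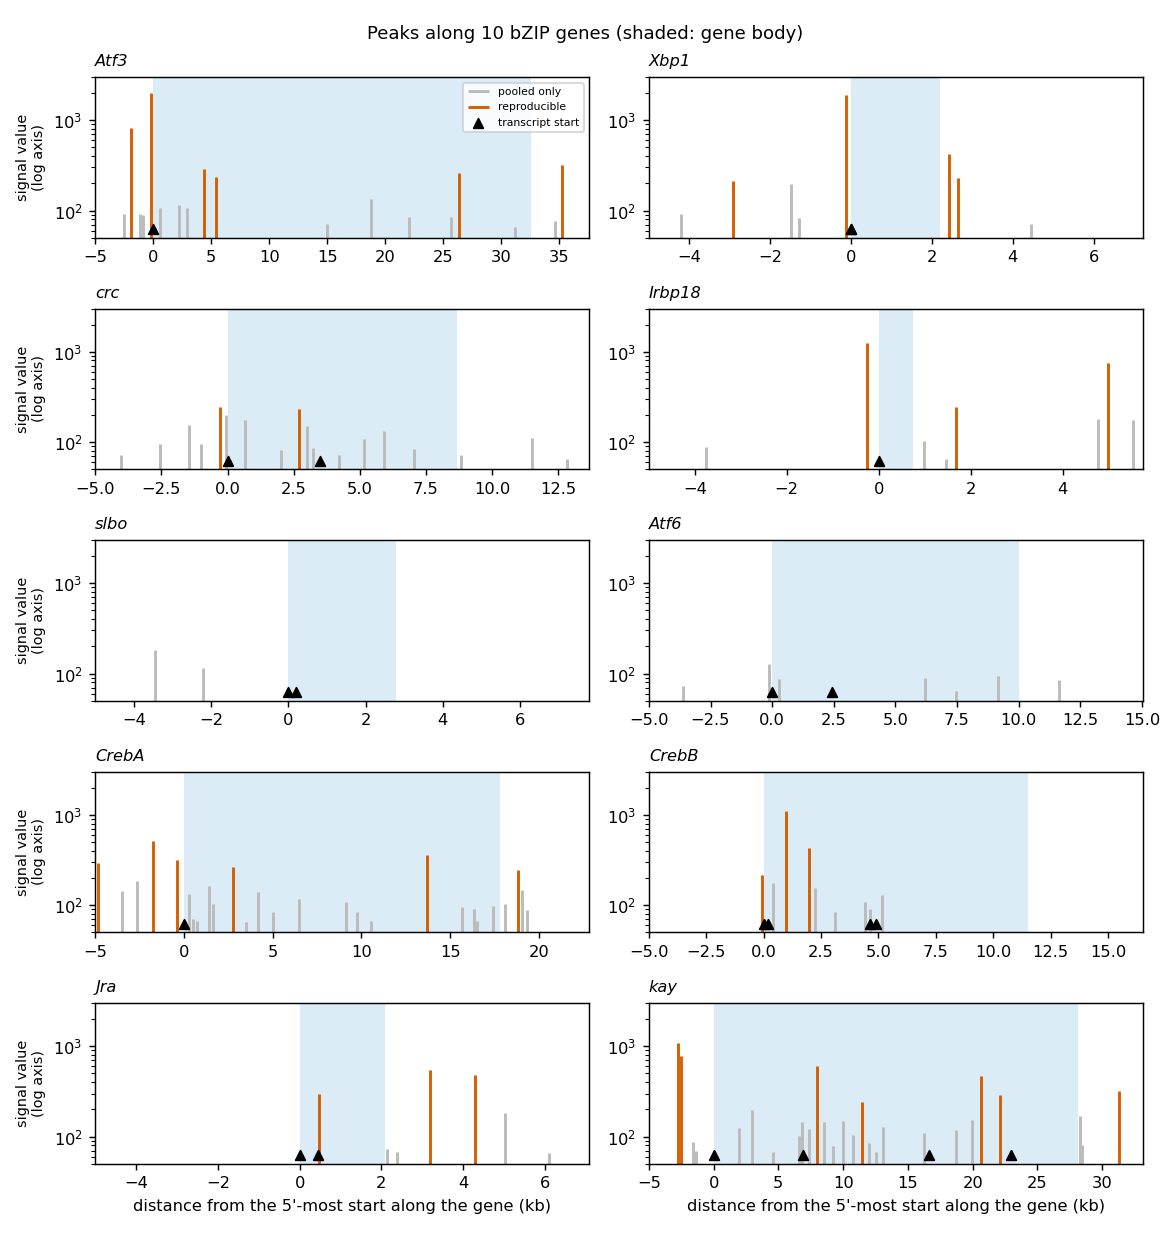
Signal values (vertical log axis) of summits along each of the 10 bZIP genes, against the distance from the 5′-most start in kb; orange lines are reproducible summits, grey lines those of the pooled list only, triangles transcript starts and shading the gene body. The highest reproducible summits of Atf3, Xbp1 and Irbp18 lie just upstream of their starts, Atf3, CrebA, CrebB and kay have others along the gene, and slbo and Atf6 have none.

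Jra and kay, the Jun and Fos partners of AP-1, both had low promoter summits. Jra spans 2077 bp on 2R (10096480 to 10098556, plus strand, FBgn0001291). Its summit lay in the 5′ UTR, 15 bp downstream of the start at 10096928, with 138 in replicate 1 (rank 4433), 228 in replicate 2 (rank 1961) and 293 in the pooled call. Of the 10 promoter summits this was the nearest to a start. The other 2 peaks of the Jra window were higher (542 and 477), and both lay at 14-3-3zeta, a gene for a phosphoserine-binding adaptor protein. The peak of 542 was 8 bp from the 14-3-3zeta start and 1113 bp past the end of Jra.

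kay spans 28119 bp on 3R (29765995 to 29794113, plus strand, FBgn0001297), and its 5 transcripts have 4 distinct starts. It held 7 reproducible peaks, against 6 each at Atf3 and CrebA, but 2 of the 7 overlap. In the 6153 highest peaks of replicate 2 alone the counts were 5 at kay, 7 at Atf3 and 6 at CrebA. In the 6153 highest of replicate 1 alone they were 10, 4 and 5. Only 1 of the kay starts had a reproducible summit within 1000 bp. That start, at 29788936, belongs to kay-RF, and its summit lay 854 bp upstream with 144 in replicate 1, 114 in replicate 2 and 287 in the pooled call. The higher peaks lay further from the starts. A peak 2735 bp upstream of the gene had 588 in replicate 1, 562 in replicate 2 and 1074 in the pooled call. An overlapping peak 2531 bp upstream (772) matched the same peak in each replicate, so the pair is not independent. The intronic peak with the Cnc-Maf match lay 1071 bp downstream of the start at 29772892, with 328, 316 and 598 in the same order, just outside the promoter distance. The remaining kay peaks were intronic summits of 464 and 243 and a summit of 320 past the 3′ end, in a coding exon of Rnb.

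Across the 10 genes, 12 of 21 distinct starts had a reproducible summit within 1000 bp, and 17 had one in the pooled list. The 9 without were both of slbo, both of Atf6, 2 of CrebB and 3 of kay. The 12 are not independent. Both Xbp1 starts had the same nearest summit (1902), as did both Jra starts (293) and the CrebB starts at 18366357 and 18366561 (213). The share over all annotated starts is not given here. The pooled list added 97 peaks to the 34, with signal values of 64.5 to 200. Of these 55 overlapped a peak of both replicates, 38 of 1 replicate and 4 of neither, and 21 lay within 1000 bp of a start of their own gene. With the starts of every annotated gene, 48 of the 97 did. Of the 34 reproducible summits, 10 lay within 1000 bp of a start of their own gene and 24 did not. With the starts of every annotated gene, 20 of the 34 did. By annotation 15 were intergenic, 15 intronic, 3 in a 5′ UTR and 1 in a coding exon. Of the 34, 16 lay nearer a start of another gene than one of their own. Of these 16, 11 were within 1000 bp of a protein-coding start of that kind. The matching placement counts over all reproducible peaks and over the whole pooled list are not given here. Whether this placement is particular to the 10 genes was therefore not tested.

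All 34 reproducible peaks overlapped a peak in both replicate lists by at least 1 bp, against 97.6% of the 6153. The reproducible list was made from the replicates, so this overlap is largely fixed by how it was made. With each replicate list held to its highest 6153 peaks, 25 of the 34 (73.5%) were found in both, against 72.7% of all reproducible peaks. The replicate ranks were within 2 fold of each other for 21 peaks and further apart for 13. Replicate 1 gave the higher rank for 14 peaks and replicate 2 for 20. The matching rank counts over all reproducible peaks are not given here. Of the 4 high promoter summits, those of Atf3, Xbp1 and CrebB were within 2 fold and that of Irbp18 was not. The widest gaps lay at low peaks, as in the introns of Atf3 and CrebA.

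**Figure D3:**
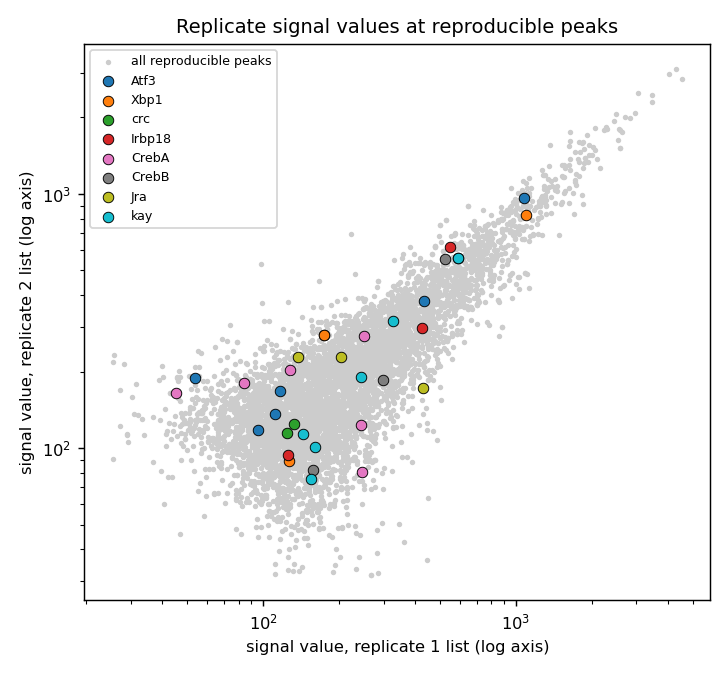
Signal value in replicate 2 against replicate 1 (both axes log) for the 34 reproducible peaks at the 10 bZIP genes, coloured by gene, over the 6003 reproducible peaks found in both lists, in grey. Pairs of peaks at kay and Xbp1 that match the same replicate peaks lie on 1 point. The highest promoter summits of Atf3, Xbp1, Irbp18 and CrebB lie at the upper right, and the spread between the replicates is wider at low values.

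Each bZIP motif was in few of the 34 summit windows of 101 bp, and in few of all 6153. Searched on both strands in the 101 bp at each of the 34 summits, the full cAMP response element TGACGTCA had no match, against 0.13% of all 6153 windows. AP-1 TGANTCA and its form TGACTCA, the core of the antioxidant element, had none either, against 2.47% and 0.926%. With 100 bp either side of the summit instead of 50, AP-1 was in 3 windows (8.82%, against 4.99%), TGACTCA in 2 (5.88%, against 2.1%) and the Cnc-Maf motif in 4 (11.8%, against 5.95%). The ATF4 and C/EBP composite TGATGNAA had none in the 101 bp, against 1.41%, and was in 1 of the wider windows (2.94%, against 2.83%). TGACG, the first part of the cAMP response element and also contained in TGACGTG, was in 5 windows (14.7%, against 7.44%). They belonged to CrebA, crc and kay by the 5 kb rule. That of CrebA lay in the 5′ UTR of AGO2, and 1 of those of kay in a coding exon of Rnb. TGACGTG was in 2 (5.88%, against 0.488%), those of crc and kay printed above. With 100 bp either side, TGACG was in 10 windows (29.4%, against 14.5%) and TGACGTG in 3 (8.82%, against 1.01%). In the 101 bp, the other forms were as follows. TTGCNNAA was in 2 (against 8.4%), TTNCGNAA in 1 (against 2.96%) and the Cnc-Maf motif in 1 (2.94%, against 2.73%). With 100 bp either side, TTGCNNAA was in 6 (17.6%, against 16.8%) and TTNCGNAA in 3 (8.82%, against 6.18%). All these counts are small, and no test was made of them.

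Of the motifs of other factors, TATCGATA, the DNA replication-related element, was in 2 windows (5.88%, against 2.7%). One was at the Jra promoter and the other at the JIL-1 start in the Irbp18 window. GAGAGAG and the E-box CACGTG had no match, against 1.64% and 0.813%. With all motifs together, 10 of the 34 windows held at least 1 (29.4%, against 26.1%) and 24 held none. The median share of G and C was 36.6%, against 33.7% for all windows.

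Genes that act with these factors were read in the same way, from lists chosen with earlier results of these data known. Among 12 other fly bZIP genes, 6 had a promoter summit (50%, against 31.9% of all genes), with a median signal value of 351. Of this list 33.3% had 3 or more starts, a class in which 61.3% of all genes had one. cnc itself was highest, with 1109 in replicate 1, 1053 in replicate 2 and 2133 in the pooled call. REPTOR, which acts when the kinase TORC1 is off, had 790, 718 and 1483 in the same order. vri (433) and Pdp1 (268), bZIP factors of the circadian clock, were lower. maf-S, the partner of Cnc, had 251, at a summit 633 bp from its start that also lay within 1000 bp of the starts of CG11110 and rig.

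Of 21 genes of the unfolded protein and integrated stress responses, 13 had a promoter summit (61.9%, against 31.9% of all genes), with a median of 417. Hrd3, of the complex that marks ER proteins for degradation, had the highest with 2083, at a promoter shared with PTPMT1. Edem2, which selects misfolded glycoproteins, had 1002 at a promoter shared with CG16974. Ire1, the sensor that splices Xbp1, had 856 (shared with Mrm2), and Herp, another ER degradation factor, had 636 (shared with r2d2). Of 36 secretory pathway genes, the known target group of CrebA in the embryo, 25 had one (69.4%, against 31.9%, median 509). alphaCOP, a coat protein of vesicles returning to the ER, had 2693 (shared with CG13919) and loj, a cargo receptor of the p24 family, had 2174 (shared with CG10467). TRAM, at the protein translocation channel, had 1792, and Srp14, of the signal recognition particle, had 1316 (shared with EloB).

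Of 21 genes of the JNK and AP-1 pathway, 13 had a promoter summit (61.9%, against 31.9% of all genes, median 343). In the 6153 highest peaks of replicate 2 alone this count was 8 of 21, against 31.2% of all genes. Within 250 bp of a start it was 6 of 21, against 24%, so the difference from all genes was not stable. Mkk4, a kinase upstream of JNK, had 2027 at a promoter shared with SLIRP2, and hid, a cell death activator, had 1212. wnd and Tab2, further upstream in the cascade, had 429 and 410, the second shared with mip40. Of 13 genes of the cAMP and CREB pathway, 10 had a promoter summit (76.9%, against 31.9%, median 400). In this list 53.8% had 3 or more starts, a class in which 61.3% of all genes had one. dnc, the cAMP phosphodiesterase, had 735, nej, the CREB-binding protein, 537, Sik3, a kinase of the CREB coactivator, 494, and Pka-C1, the catalytic subunit of protein kinase A, 450. Of 11 border cell and JAK/STAT genes, which act beside slbo in the ovary, 7 had one (63.6%, against 31.9%, median 384). In this list 36.4% had 3 or more starts, the class at 61.3%. The highest were Stat92E (664), Pvr (592), tai (573, shared with CG9586) and jing (384).

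**Figure D4:**
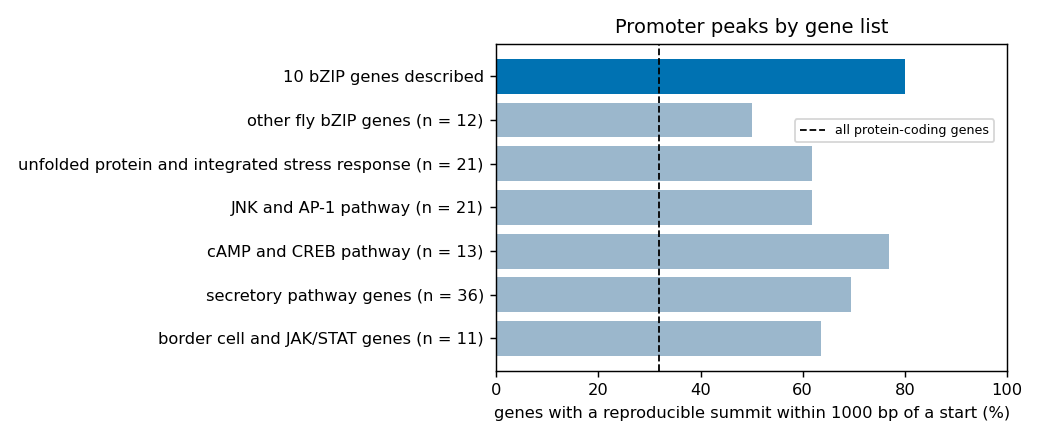
Share of genes in each list with a reproducible summit within 1000 bp of a start, with the 10 bZIP genes on top and a dashed line at 31.9%, the share of all protein-coding genes. The 10 genes stand at 80% and the other lists between 50% and 76.9%.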

How the data were processed

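ChIP-seq peak lists of Cnc-eGFP from 2 biological replicates of 1 group were used on dm6, per the labels. The authors deposited a list per replicate, a pooled list and a list of reproducible peaks. Peaks were called against a control that was not analysed here, per the deposited file lists. Each peak carries the authors' signal value, used here as a score within its list, and a −log10 q value. The sources used here do not give an aligner, a peak caller, software versions or a threshold for reproducible peaks. The 6153 reproducible peaks stood unchanged in the pooled list and were its 6153 highest. The other 3 lists were each 30000 peaks long, a length that says nothing of how many sites were bound.

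From these lists, summits were assigned to gene models of Ensembl release 115 with Python 3.11.15, numpy 2.4.6, pandas 2.3.3 and scipy 1.17.1, and drawn with matplotlib 3.10.9. Each replicate value is the highest of that replicate's peaks that overlap by at least 1 bp. Signal values belong to their own lists and were not averaged over replicates, so that the precision of a value cannot be given beyond its 2 replicate values. Motifs were searched 50 bp either side of summits. The counting steps were checked on simulated peaks. The 10 genes and all gene lists were chosen with earlier results of these data known, so no test was run. All 10 genes are named, and up to 4 genes per list with the highest promoter signal, with genes sharing a promoter peak. maf-S was added after its value was seen. Calnexin99A, Derlin-1 and Sec62 matched no annotated symbol and were left out. Alternatives covered the promoter distance, the starts used, the list, each replicate, the window and the overlap. Values on the older build dm3 were not used for the genes.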

Additional observations from a re-analysis of the deposited data

How the results depend on the processing

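No paired analysis was possible because the series holds 1 group. The 10 genes were not run on dm3, whose gene annotation was not used here. Among 102 recomputed summary values, 72 kept their value within 1.5 times or within their own margin. Among 200 recomputed values of single genes, motifs and backgrounds, 140 did.

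The count of bZIP genes with a promoter summit was 8 at 1000 bp, 4 at 250 bp, 7 at 500 bp and 8 at 2000 bp, against 31.9%, 24%, 28.4% and 36.9% of all genes. At 250 bp, occupied starts were 5, shared promoters 0, the JNK and cAMP lists 6 each and the border cell list 4. Shared promoters numbered 3 at 1000 bp, 1 at 500 bp and 5 at 2000 bp. The share of genes with 3 or more starts that had one was 44.3% at 250 bp, 54.5% at 500 bp and 65.5% at 2000 bp. With only the 5′-most start of each gene it was 47.2%, with 7 occupied starts and 7 bZIP genes, kay being lost.

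In the upper 3076 reproducible peaks, 4 bZIP genes (Atf3, Xbp1, Irbp18 and CrebB) had a promoter summit, against 20.3% of all genes. Occupied starts were then 6, shared promoters 1, window summits 16 and the share with 3 or more starts 40.9%. The other bZIP list had 3, the unfolded protein list 8, the JNK and cAMP lists 6 each and the border cell list 4. In the whole pooled list 9 bZIP genes had one, Atf6 being added, against 56.1% of all genes, with 8 shared promoters, 131 window summits and a share of 84.7% with 3 or more starts. Without flanks, window summits were 13 in 6 of the 10 genes, against 15.3% of all genes. Windows holding any motif numbered 6 with 25 bp either side (17.6%, against 13.7% of all windows) and 20 with 100 bp (58.8%, against 46.1%).

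Leaving out a replicate here means taking the 6153 highest peaks of the other replicate's own list, which is not a list of reproducible peaks. This gave 7 to 8 bZIP genes (CrebA was lost without replicate 1) and 11 to 12 occupied starts. It gave 33 to 36 window summits and 8 to 13 genes of the JNK list. Of all genes, 31.2% had a promoter summit without replicate 1 and 32% without replicate 2. Overlap with both replicates held for 34 peaks at 1 bp, 26 with 50% overlap, 30 with summits within 100 bp and 25 in the highest 6153. The depth of the libraries is unknown, so a gene without a peak was not detectably occupied in these lists, and slbo and Atf6 are not shown to be free of Cnc. With 2 replicates of whole larvae, neither tissue nor cell type can be told apart.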

Other observations

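Several reproducible peaks near the bZIP genes sat at the starts of their neighbours. In the Irbp18 window the peak 10 bp from the start of JIL-1, a histone kinase gene, had 427 in replicate 1, 298 in replicate 2 and 746 in the pooled call. The peak 8 bp from the start of 14-3-3zeta had 431, 172 and 542 in the same order, above the 293 of the Jra promoter summit beside it. A further summit in the first part of 14-3-3zeta, 269 bp from its start, had 203, 228 and 477. The peak 227 bp from the start of Hmg-2 had 174, 279 and 422. Lower peaks lay 78 bp from the start of AGO2, the Argonaute of small interfering RNAs (243), and 199 bp from that of CG11403 (316). By contrast, the pair upstream of kay (1074 and 772) had no protein-coding start of another gene within 1000 bp.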
